A study of Mus musculus with 26 samples.

Results

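Myc, Mycn, the D-type cyclins, their kinases and the Cip/Kip inhibitors control whether a cell commits to growth and a new division. The 10 genes of this circuit described here were chosen by name: Myc, Mycn, Ccnd1, Ccnd2, Ccnd3, Cdk4, Cdk6, Cdkn1a, Cdkn1b and Cdkn1c. Each was read from 1 probe set, the one with the highest mean over the 26 arrays, and 9 of the 10 genes could be measured among 19938 genes in all. The only probe set of Cdkn1a is annotated to 2 genes, so no value is given for it. Values are log2 signals, on which a difference of 1 is a doubling of signal, and a level may be set against another level of the same probe set only.

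Bone marrow came from mice that carry 1 copy of a Gata1-EGFP transgene (genotype Tg/+), aged 8 to 15 weeks, and RNA of 8 populations of stem cells and early progenitors was hybridised to 26 arrays. Because the transgene is in every group, the reporter separates cells by its activity and there is no group without it. CLP (common lymphoid progenitors, 3 arrays) were lineage-negative, B220-negative, low for Sca1 and cKit, and positive for Flt3 and IL-7Ra. GMP (granulocyte-monocyte progenitors) were lineage-negative, cKit-positive, Sca1-negative, CD41-negative and FcgRII/III-positive, sorted into GMP GFP+ (3 arrays) and GMP GFP- (4 arrays) by the reporter. PreMegE (3 arrays), which precede megakaryocytes and red cells, shared that gate but were FcgRII/III-negative, CD150-positive and CD105-negative, with no reporter gate in the label. PreGM, negative for FcgRII/III, CD150 and CD105, were split into PreGM GFP+ and PreGM GFP- (3 arrays each). LMPP (lymphoid-primed multipotent progenitors, 4 arrays) were lineage-negative, cKit-positive, Sca1-positive, CD150-negative, high for Flt3 and reporter-negative. HSC GFP- (stem cells, 3 arrays) were lineage-negative, cKit-positive, Sca1-positive, CD150-positive, Flt3-negative and reporter-negative, and the reporter-positive HSC named in the design were not analysed here.

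Myc and N-Myc (the product of Mycn) are related transcription factors that pair with Max, bind E-box sequences and raise the transcription of genes for ribosomes and nucleotide synthesis. Mitogens raise the D-type cyclins, which activate Cdk4 and Cdk6. These kinases phosphorylate Rb proteins, and E2F factors are then free to turn on genes of S phase. The Cip/Kip inhibitors Cdkn1a, Cdkn1b and Cdkn1c bind cyclin-kinase complexes and can hold a cell out of division, and in mouse stem cells Cdkn1c is known for its part in quiescence.

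Promoter windows of 3 genes are printed because their windows hold the letters that the Myc-Max pair or E2F factors prefer. They run 5′ to 3′ on the gene's strand, from 250 bases before to 50 after a RefSeq start in GRCm38.p6, in lower case with the motif in capitals. The motif is CACGTG, the E-box of Myc and Max, for Cdk4 and Cdk6, and the E2F letters TTGGCGC for Mycn.
Mycn (chr12:12941787-12942086, minus strand): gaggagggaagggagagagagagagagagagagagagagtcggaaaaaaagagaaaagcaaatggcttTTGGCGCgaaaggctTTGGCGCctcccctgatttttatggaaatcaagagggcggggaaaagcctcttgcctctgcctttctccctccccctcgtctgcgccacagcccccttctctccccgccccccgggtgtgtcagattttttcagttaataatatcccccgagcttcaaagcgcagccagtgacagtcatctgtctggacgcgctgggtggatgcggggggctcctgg
Cdk4 (chr10:127063285-127063584, plus strand): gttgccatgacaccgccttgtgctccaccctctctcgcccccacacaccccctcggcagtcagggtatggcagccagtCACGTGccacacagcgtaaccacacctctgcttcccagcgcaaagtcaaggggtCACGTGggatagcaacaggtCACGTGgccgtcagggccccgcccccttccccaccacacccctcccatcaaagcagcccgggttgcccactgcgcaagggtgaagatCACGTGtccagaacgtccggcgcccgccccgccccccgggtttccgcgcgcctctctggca
Cdk6 (chr5:3343643-3343942, plus strand): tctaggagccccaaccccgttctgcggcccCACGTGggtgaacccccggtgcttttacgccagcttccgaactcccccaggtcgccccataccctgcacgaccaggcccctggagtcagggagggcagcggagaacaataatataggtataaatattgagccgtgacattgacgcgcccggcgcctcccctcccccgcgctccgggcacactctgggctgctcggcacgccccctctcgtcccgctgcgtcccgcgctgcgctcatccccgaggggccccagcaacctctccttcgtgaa
Of the 10 genes, 6 had a window, 8 windows in all. Both strands were searched for CACGTG, for the GATA core GATAA and for E2F letters (TTCCCGC or TTGGCGC), and the motifs do not overlap in these windows. The Cdk4 window held CACGTG 4 times and the Cdk6 window held it 1 time, while 7.15% of 32851 windows of the same length held it. The Mycn window held TTGGCGC 2 times, against 6.81% of windows with either set of E2F letters. GATAA was in 0 of the 8 windows and in 25.4% of all windows. A match describes these letters and does not show binding.

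Of the genes behind the sort, Gata1 averaged 8.08 in GMP GFP+, 8.47 in PreMegE and 8.48 in PreGM GFP+, and lay between 6.31 and 6.73 in the other 5 groups. Il7r averaged 9.94 in CLP, and between 5.08 and 6.68 in the other groups. Itga2b, which encodes CD41, went against the CD41-negative gate in some groups, although the gate reads surface protein and the array reads RNA. It averaged 8.57 in GMP GFP+, 8.37 in PreMegE and 8.63 in PreGM GFP+, against 7.92 in HSC GFP-, which had no CD41 gate. In GMP GFP- and PreGM GFP- it averaged 7.13 and 7.50, below HSC GFP-. Among markers that no gate used, Dntt averaged 11.87 in CLP, Elane 11.47 in GMP GFP- and Hlf 11.28 in HSC GFP-, each the highest of the 8 groups. Array medians lay between 6.42 and 6.70, and no label says that arrays of a group came from separate mice, so a p-value reflects only how these samples spread, and that spread may be technical. HSC GFP- array 1 was the highest of its 3 arrays for 9 of 9 measured genes, as it was for 38.9% of all genes, although its array median of 6.56 was the lowest of the 3. It is therefore left out in turn beside the results that rest on it.

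Of the 9 genes, 7 differed among the groups, by the test given next. Mycn, Ccnd2 and Cdkn1c had their highest means in stem cells and Cdk6 its lowest, Ccnd1 and Ccnd3 had their highest means in CLP, and Myc in PreGM GFP-. A moderated F test over the 8 groups in limma, adjusted over all genes, called 7 of the 9 genes, against 15.2% of all genes. The adjusted p was 4.4e-06 for Mycn, 9.36e-05 for Cdk6, 0.000156 for Myc, 0.000324 for Ccnd2, 0.000327 for Ccnd3, 0.00299 for Ccnd1 and 0.0148 for Cdkn1c. It was 0.122 for Cdk4 and 0.594 for Cdkn1b. Without HSC GFP- array 1 the adjusted p of Cdkn1c was 0.0721 and that of Cdk4 was 0.0294. RNA here is bulk, so fewer cells of a type and less RNA per cell cannot be told apart.

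**Figure D1:**
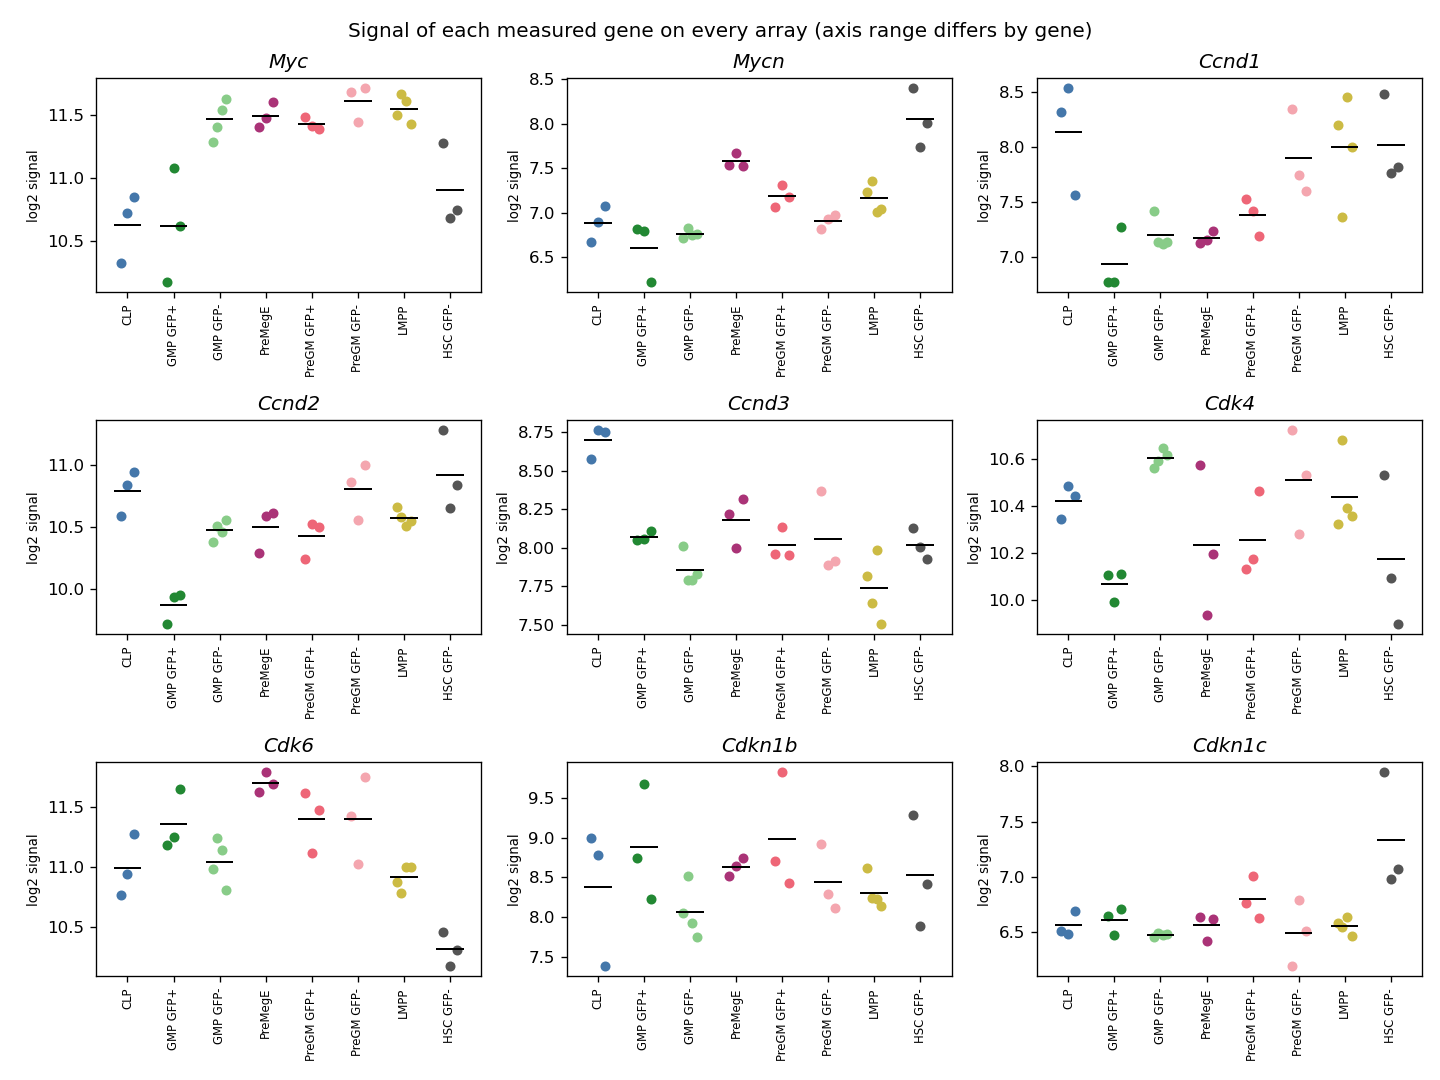
Log2 signal of the 9 measured genes on every array (points) with the group mean (bars), for CLP, GMP GFP+, GMP GFP-, PreMegE, PreGM GFP+, PreGM GFP-, LMPP and HSC GFP- from left to right; the vertical range differs by gene. Mycn and Cdkn1c are highest in HSC GFP-, Cdk6 is lowest there, Ccnd3 is highest in CLP, and Myc is low in CLP, GMP GFP+ and HSC GFP-.

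Set against stem cells, 4 of 9 genes were called in CLP (6.11% of all genes), 5 in GMP GFP+ (4.1%), 6 in GMP GFP- (12.9%) and 2 in PreMegE (3.18%). In PreGM GFP+ 2 were called (3.63%), in PreGM GFP- 4 (4.76%) and in LMPP 3 (2.32%). By direction, the calls were 2 higher (2.99% of all genes) and 2 lower (3.11%) in CLP, 1 higher (1.89%) and 4 lower (2.21%) in GMP GFP+, and 2 higher (7.1%) and 4 lower (5.81%) in GMP GFP-. They were 1 higher (0.988%) and 1 lower (2.19%) in PreMegE, 1 higher (1.5%) and 1 lower (2.13%) in PreGM GFP+, 2 higher (2.38%) and 2 lower (2.38%) in PreGM GFP-, and 1 higher (1.03%) and 2 lower (1.28%) in LMPP. All 7 shares of members exceed those of all genes, but with 9 genes 1 call moves a share far. The genes were chosen with earlier results of these data known and were not matched to all genes in signal. These shares are therefore no test of an excess. The 7 comparisons also share the same 3 stem cell arrays. Without HSC GFP- array 1 the counts were 3 in CLP, 3 in GMP GFP+, 5 in GMP GFP-, 2 in PreMegE, 3 in PreGM GFP+, 4 in PreGM GFP- and 2 in LMPP.

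Myc was abundant in 5 groups and lower in CLP, GMP GFP+ and stem cells. Its log2 signals were 10.32, 10.72 and 10.85 in CLP and 10.17, 11.08 and 10.62 in GMP GFP+. They were 11.29, 11.41, 11.54 and 11.63 in GMP GFP-, 11.41, 11.48 and 11.61 in PreMegE, and 11.49, 11.42 and 11.39 in PreGM GFP+. They were 11.68, 11.45 and 11.72 in PreGM GFP-, 11.50, 11.67, 11.61 and 11.43 in LMPP, and 11.28, 10.68 and 10.75 in HSC GFP-. Every array of the 5 high groups lay above every array of the other 3 groups. Within the high groups, each neighbour in the order PreGM GFP-, LMPP, PreMegE, GMP GFP- and PreGM GFP+ overlapped the next, and so did HSC GFP-, CLP and GMP GFP+ below them.

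Against stem cells Myc rose in PreGM GFP- by 0.71 (SE 0.18, adjusted p = 0.0235 in limma), in LMPP by 0.65 (SE 0.17, adjusted p = 0.0465) and in GMP GFP- by 0.56 (SE 0.17, adjusted p = 0.0302), which is 1.64-fold, 1.57-fold and 1.48-fold. The differences were 0.59 in PreMegE (adjusted p = 0.0904) and 0.53 in PreGM GFP+ (adjusted p = 0.145), and they passed the threshold without HSC GFP- array 1 (0.78, adjusted p = 0.0223, and 0.72, adjusted p = 0.0381). The LMPP call was lost in 20 of the 26 fits that each left out 1 array, with an adjusted p of up to 0.219 without HSC GFP- array 2. Without that same array the adjusted p was 0.125 in PreGM GFP- and 0.159 in GMP GFP-, and after quantile normalization it was 0.0723 and 0.132. In CLP and GMP GFP+ Myc was 0.27 and 0.28 under stem cells, with adjusted p values of 0.565 and 0.554.

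Along the lymphoid path Myc was lower in CLP than in LMPP by a called difference of -0.92 (SE 0.17, adjusted p = 0.00329), 1.90-fold, with all 3 CLP arrays under all 4 LMPP arrays. It stayed called without any 1 of the 26 arrays. CLP against LMPP gave 2 called genes of 9, Myc lower and Ccnd3 higher, against 1.57% of all genes, 0.747% lower and 0.828% higher. In the same comparison 4 of 5 lymphoid markers were higher in CLP, with array means of 9.03 to 9.95 in CLP and 6.58 to 7.05 in LMPP. So were 4 of 5 monocyte markers, at 8.71 to 10.19 in CLP and 7.04 to 7.36 in LMPP. Their part in the Myc difference was not tested.

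Mycn was highest in stem cells and next highest in PreMegE. It had log2 signals of 6.68, 6.90 and 7.08 in CLP, 6.82, 6.79 and 6.22 in GMP GFP+, and 6.72, 6.82, 6.75 and 6.77 in GMP GFP-. PreMegE had 7.54, 7.67 and 7.52, PreGM GFP+ 7.07, 7.31 and 7.17, and PreGM GFP- 6.82, 6.93 and 6.98. LMPP had 7.24, 7.36, 7.01 and 7.04, and HSC GFP- had 8.40, 7.74 and 8.00. All stem cell arrays lay above all other arrays, PreMegE came next with all 3 arrays above those of the remaining groups, and the order then ran PreGM GFP+, LMPP, PreGM GFP-, CLP, GMP GFP- and GMP GFP+. LMPP did not overlap PreGM GFP-, and the other neighbours among these 6 groups overlapped.

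Mycn fell against stem cells in 6 of 7 groups. The called differences were -1.44 (SE 0.16, adjusted p = 1.69e-06) in GMP GFP+, -1.28 (SE 0.15, adjusted p = 2.15e-06) in GMP GFP- and -1.16 (SE 0.16, adjusted p = 2.86e-05) in CLP. They were -1.14 in PreGM GFP- (adjusted p = 7.59e-05), -0.88 in LMPP (adjusted p = 0.00102) and -0.86 in PreGM GFP+ (adjusted p = 0.00156). As folds these range from 1.82 to 2.71. The largest is for GMP GFP+, whose Mycn mean of 6.609 lay just above the median of all signals, 6.607. In PreMegE the difference was -0.47 (95% interval -0.80 to -0.14, adjusted p = 0.133). Without HSC GFP- array 1 the 6 calls remained, from -1.26 in GMP GFP+ to -0.69 in PreGM GFP+.

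Of 14 measured genes of the Myc network (Max, the Mxd and Mxi repressors, Mlx and its partners, and the ligases Fbxw7 and Huwe1 among them), 1 was called higher in GMP GFP- against stem cells (7.1% of all genes) and 1 lower in GMP GFP+ against GMP GFP- (4.05%), counts near those shares. Both were Mlx, a dimer partner in the parallel Mondo arm. The differences were 0.74 (adjusted p = 0.00634) and -0.65 (adjusted p = 0.0258). In the other 6 comparisons with stem cells 0 of 14 were called in limma. The Mlx call against stem cells was lost without HSC GFP- array 1 (0.58, adjusted p = 0.0531), and there 1 gene was called higher in CLP and 1 lower in GMP GFP+.

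Ccnd1 and Ccnd2 shared their 4 highest groups (CLP, PreGM GFP-, LMPP and HSC GFP-) and were both lowest in GMP GFP+, while Ccnd3 was highest in CLP and lowest in LMPP. Ccnd1, the cyclin most tied to mitogen signals, had log2 signals of 8.32, 8.53 and 7.56 in CLP, 6.77, 6.77 and 7.27 in GMP GFP+, and 7.42, 7.14, 7.11 and 7.13 in GMP GFP-. It had 7.13, 7.16 and 7.23 in PreMegE, 7.53, 7.42 and 7.19 in PreGM GFP+, and 8.34, 7.75 and 7.60 in PreGM GFP-. It had 8.19, 7.36, 8.45 and 8.00 in LMPP and 8.48, 7.76 and 7.82 in HSC GFP-. The groups CLP, HSC GFP-, LMPP and PreGM GFP- held the 4 highest means and overlapped each other in that order. All PreGM GFP- arrays lay above all PreGM GFP+ arrays, and PreGM GFP+, GMP GFP-, PreMegE and GMP GFP+ followed with overlaps. Ccnd1 fell against stem cells in GMP GFP+ by 1.08 (SE 0.26, adjusted p = 0.0154), 2.12-fold, and in GMP GFP- by 0.82 (SE 0.24, adjusted p = 0.0272), 1.77-fold. Without HSC GFP- array 1 these were -0.85 (adjusted p = 0.116) and -0.59 (adjusted p = 0.179). The GMP GFP+ call was also lost in limma without GMP GFP+ array 1 (adjusted p = 0.078) or array 2 (adjusted p = 0.0729). With only the groups compared it was lost as well (adjusted p = 0.0636). The difference in PreMegE was -0.85 (adjusted p = 0.0906).

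Ccnd2, abundant in blood progenitors, had log2 signals of 10.58, 10.84 and 10.94 in CLP, 9.71, 9.94 and 9.95 in GMP GFP+, and 10.38, 10.50, 10.45 and 10.55 in GMP GFP-. It had 10.29, 10.59 and 10.61 in PreMegE, 10.24, 10.52 and 10.50 in PreGM GFP+, and 10.86, 10.55 and 11.00 in PreGM GFP-. It had 10.66, 10.58, 10.51 and 10.55 in LMPP and 11.28, 10.65 and 10.84 in HSC GFP-. GMP GFP+ alone stood apart, with its 3 arrays below all 23 others, while neighbours among the other 7 groups overlapped in the order HSC GFP-, PreGM GFP-, CLP, LMPP, PreMegE, GMP GFP- and PreGM GFP+. Against stem cells Ccnd2 fell by 1.05 in GMP GFP+ (SE 0.15, adjusted p = 4.58e-05), 2.08-fold, and the difference without HSC GFP- array 1 was -0.88 (adjusted p = 0.000454). It fell by 0.45 in GMP GFP- (SE 0.14, adjusted p = 0.0313), and this call was lost without HSC GFP- array 1 (-0.27, adjusted p = 0.244).

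Ccnd3, which lymphoid precursors need for their expansion in the mouse, was highest in CLP. Its log2 signals were 8.57, 8.76 and 8.75 in CLP, 8.05, 8.06 and 8.11 in GMP GFP+, and 8.01, 7.79, 7.79 and 7.83 in GMP GFP-. They were 8.22, 8.00 and 8.31 in PreMegE, 7.96, 8.13 and 7.96 in PreGM GFP+, and 8.37, 7.89 and 7.91 in PreGM GFP-. They were 7.82, 7.64, 7.99 and 7.50 in LMPP and 8.13, 8.00 and 7.93 in HSC GFP-. The 3 CLP arrays lay above the other 23, and every neighbouring pair among the other 7 groups overlapped. Ccnd3 rose in CLP by 0.96 against LMPP (SE 0.12, adjusted p = 4.08e-05), 1.94-fold, and by 0.68 against stem cells (SE 0.13, adjusted p = 0.00193), 1.60-fold. Both calls remained without any 1 of the 26 arrays. The marker differences between CLP and LMPP given above stand beside it, and their part was not tested.

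Cdk6, the D-cyclin kinase known for the exit of blood stem cells from quiescence, was lowest in stem cells. Its log2 signals were 10.76, 10.94 and 11.27 in CLP, 11.18, 11.25 and 11.65 in GMP GFP+, and 10.99, 11.24, 11.14 and 10.81 in GMP GFP-. They were 11.63, 11.79 and 11.69 in PreMegE, 11.61, 11.11 and 11.48 in PreGM GFP+, and 11.43, 11.02 and 11.76 in PreGM GFP-. They were 10.87, 10.78, 11.00 and 11.00 in LMPP and 10.46, 10.17 and 10.30 in HSC GFP-. The 3 stem cell arrays lay below the other 23. PreMegE had the highest mean and did not overlap PreGM GFP+, the next by mean. Its arrays did overlap those of PreGM GFP- (up to 11.76) and GMP GFP+ (up to 11.65). From PreGM GFP+ down to LMPP, each neighbour by mean overlapped the next.

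Cdk6 rose against stem cells by 1.40 in PreMegE (SE 0.18, adjusted p = 1.75e-05), 2.63-fold, and by 1.09 in both PreGM GFP+ (SE 0.18, adjusted p = 0.000353) and PreGM GFP- (SE 0.18, adjusted p = 0.00038), 2.13-fold. It rose by 1.05 in GMP GFP+ (SE 0.18, adjusted p = 4e-04), by 0.73 in GMP GFP- (SE 0.16, adjusted p = 0.00367) and by 0.68 in CLP (SE 0.18, adjusted p = 0.0179). In LMPP the difference was 0.61 (95% interval 0.27 to 0.95, adjusted p = 0.0532), with all 4 LMPP arrays above the stem cell arrays. The CLP call was lost without CLP array 3 (0.54, adjusted p = 0.112), and also without HSC GFP- array 2 or array 3. All 6 calls remained without HSC GFP- array 1, from 0.76 in CLP to 1.47 in PreMegE. Of 8 neutrophil markers 4 were called higher and 1 lower in PreMegE against stem cells, with array means over the 8 of 8.58 to 8.82 in PreMegE and 6.59 to 7.07 in HSC GFP-. Among them S100a8 averaged 10.86 in PreMegE and 5.56 in HSC GFP-, S100a9 11.76 in PreMegE and 6.53 in HSC GFP-, and Camp 9.17 in PreMegE and 6.72 in HSC GFP-. The granule protease Elane averaged 6.77 in PreMegE and 6.34 in HSC GFP-. Of 4 measured erythroid markers 2 were called higher there. The part of such cells in the Cdk6 difference was not tested.

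Cdk4, the sister kinase of Cdk6, had a smaller span. Its log2 signals were 10.34, 10.48 and 10.44 in CLP, 10.11, 9.99 and 10.11 in GMP GFP+, and 10.56, 10.59, 10.65 and 10.62 in GMP GFP-. They were 10.57, 9.94 and 10.20 in PreMegE, 10.13, 10.18 and 10.46 in PreGM GFP+, and 10.72, 10.28 and 10.53 in PreGM GFP-. They were 10.32, 10.68, 10.39 and 10.36 in LMPP and 10.53, 10.09 and 9.90 in HSC GFP-. Group means ranged over 0.53, against 1.40 for Cdk6, and every neighbouring pair of groups overlapped. Against stem cells 0 of the 7 groups were called in limma, and GMP GFP- came nearest (0.43, 95% interval 0.12 to 0.74, adjusted p = 0.0602), where it was called without HSC GFP- array 1 (0.61, adjusted p = 0.00964).

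**Figure D2:**
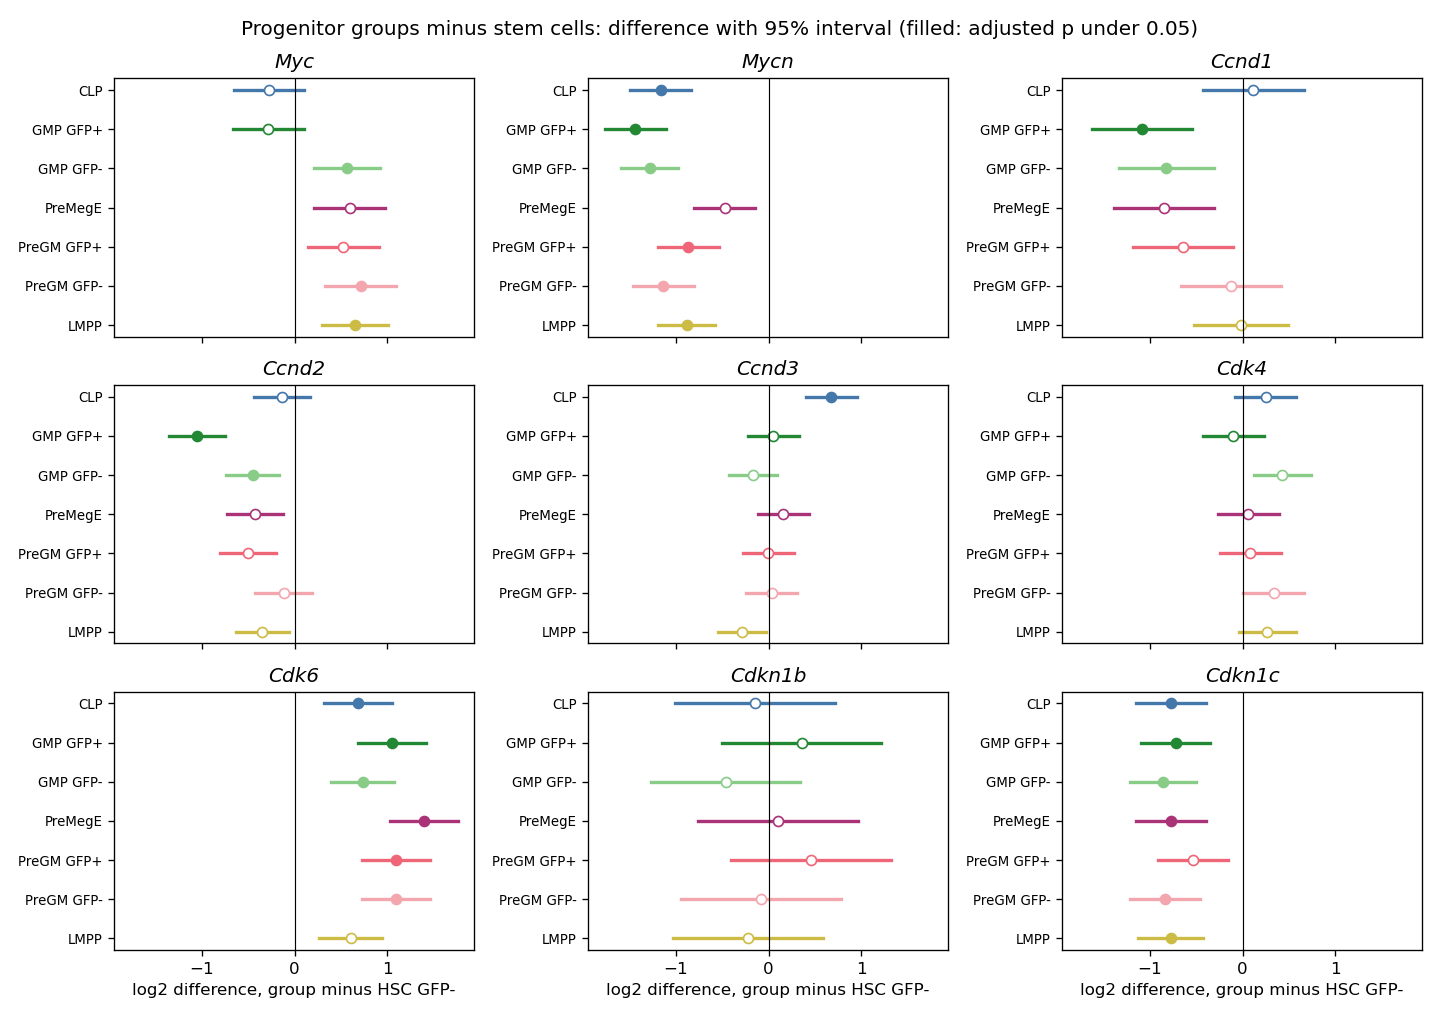
Difference in log2 signal of 7 progenitor groups from HSC GFP- for the 9 measured genes, with 95% intervals; filled points have an adjusted p under 0.05 in limma. Mycn lies left of 0 and Cdk6 right of 0 in all 7 groups, and the Mycn point of PreMegE and the Cdk6 point of LMPP are open.

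Cdkn1c was highest in stem cells. Its log2 signals there were 7.95, 6.98 and 7.07, above every array of 6 of the other 7 groups. CLP had 6.50, 6.48 and 6.69, GMP GFP+ 6.65, 6.47 and 6.71, and GMP GFP- 6.46, 6.49, 6.47 and 6.48. PreMegE had 6.64, 6.42 and 6.62, PreGM GFP+ 6.76, 7.01 and 6.63, PreGM GFP- 6.19, 6.79 and 6.50, and LMPP 6.58, 6.55, 6.64 and 6.47. PreGM GFP+, second in the order, was the only group to overlap the stem cells. The means of CLP, GMP GFP-, PreMegE, PreGM GFP- and LMPP were below the median of all signals, 6.61, so a difference from them is one of signal and is not given as a fold.

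Cdkn1c fell in 6 of 7 groups against stem cells. The called differences were -0.86 in GMP GFP- (SE 0.17, adjusted p = 0.00121), -0.84 in PreGM GFP- (SE 0.18, adjusted p = 0.00658), -0.78 in LMPP (SE 0.17, adjusted p = 0.012), -0.77 in CLP (SE 0.18, adjusted p = 0.00914), -0.77 in PreMegE (SE 0.18, adjusted p = 0.0157) and -0.72 in GMP GFP+ (SE 0.18, adjusted p = 0.0209). In PreGM GFP+ the difference was -0.53 (adjusted p = 0.132). The size of these depended on HSC GFP- array 1: without it the calls remained in GMP GFP- (-0.55, adjusted p = 0.00905) and PreGM GFP- (-0.53, adjusted p = 0.0331). They were lost in LMPP (-0.47, adjusted p = 0.0873), CLP (-0.46, adjusted p = 0.0649), PreMegE (-0.46, adjusted p = 0.102) and GMP GFP+ (-0.41, adjusted p = 0.148). Leaving out PreGM GFP- array 1 also removed the PreGM GFP- call (adjusted p = 0.0554). The GMP GFP+ call was also lost without GMP GFP+ array 1 (adjusted p = 0.0572) or array 2 (adjusted p = 0.0959). The PreMegE call was lost without PreMegE array 2 (adjusted p = 0.0739). With only the groups compared in the limma fit, GMP GFP- stayed called. The calls in LMPP, CLP, PreGM GFP-, GMP GFP+ and PreMegE were lost there (adjusted p = 0.187 to 0.327).

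Cdkn1b, whose protein is controlled largely by its breakdown through Skp2, varied widely within groups. Its log2 signals were 8.99, 8.77 and 7.38 in CLP, 8.74, 9.68 and 8.23 in GMP GFP+, and 8.06, 8.52, 7.93 and 7.75 in GMP GFP-. They were 8.51, 8.64 and 8.75 in PreMegE, 8.70, 9.82 and 8.43 in PreGM GFP+, and 8.92, 8.29 and 8.12 in PreGM GFP-. They were 8.62, 8.24, 8.22 and 8.14 in LMPP and 9.28, 7.89 and 8.41 in HSC GFP-. Neighbouring groups overlapped throughout, and 0 of the 14 pairwise comparisons called it in limma, with 1 at an unadjusted p under 0.05. Cdkn1b has another probe set, which correlated with the one used at r = 0.47 over the 26 arrays. Of the 4 INK4 inhibitors, which block Cdk4 and Cdk6 and were read as a group beside the Cip/Kip genes, 0 were called in any of the 7 comparisons with stem cells.

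Within GMP, Myc, Ccnd2 and Cdk4 were lower in the reporter-positive cells. In GMP GFP+ against GMP GFP- 3 of the 9 genes were called, all lower, against 7.27% of all genes in either direction, 4.05% lower and 3.22% higher. Myc fell by 0.85 (SE 0.17, adjusted p = 0.00293), 1.80-fold, Ccnd2 by 0.60 (SE 0.14, adjusted p = 0.00755), 1.52-fold, and Cdk4 by 0.53 (SE 0.15, adjusted p = 0.0298), 1.45-fold. For each of these the 3 GMP GFP+ arrays lay below the 4 GMP GFP- arrays. In all, 4 of the 9 genes did not overlap between these groups, against 23.7% of all genes, the fourth being Ccnd3 (0.22 higher, adjusted p = 0.307). Ccnd1, Mycn, Cdk6 and Cdkn1c differed by -0.26, -0.16, 0.32 and 0.14 with adjusted p values of 0.536, 0.547, 0.249 and 0.663.

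The Myc call held without any 1 of the 26 arrays. The Ccnd2 call was lost without GMP GFP+ array 1 (adjusted p = 0.0515), and the Cdk4 call without any 1 of the 7 GMP arrays (adjusted p up to 0.0921). Centring each array on its median moved the median difference of all genes to -0.05, against 0.08 as deposited, and the calls among all genes to 366 higher and 1195 lower, against 642 and 807 as deposited. All 3 genes remained called when centred. After quantile normalization Myc was still called, and Ccnd2 (-0.42, adjusted p = 0.0786) and Cdk4 (-0.36, adjusted p = 0.167) were not.

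Cdkn1b was 0.82 higher in GMP GFP+ (95% interval 0.01 to 1.62, adjusted p = 0.212). Its other probe set read 8.72, 8.41 and 8.48 in GMP GFP+ and 7.85, 7.82, 7.88 and 7.64 in GMP GFP-. That is a difference of 0.74 (SE 0.21, adjusted p = 0.0339), with the 3 GMP GFP+ arrays above the 4 GMP GFP- arrays. The probe sets thus disagree on the call and share the direction.

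**Figure D3:**
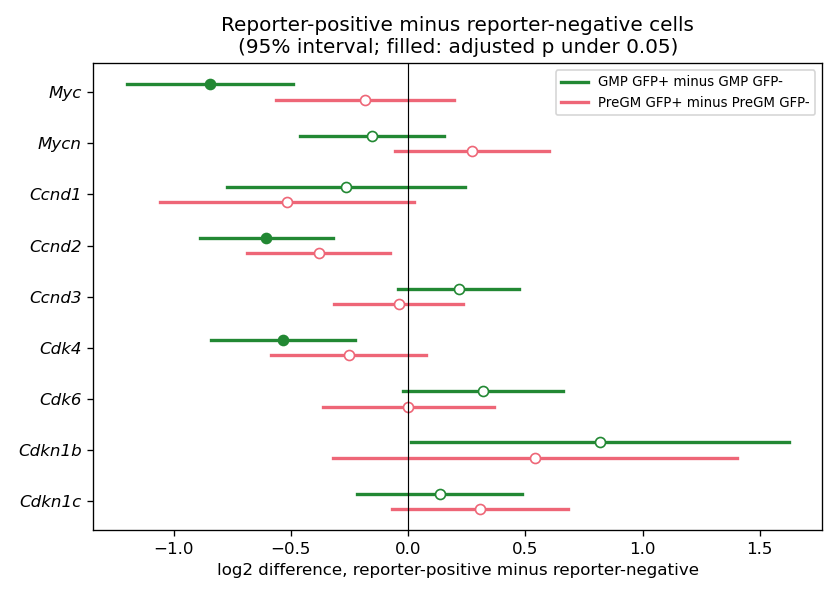
Difference in log2 signal between reporter-positive and reporter-negative cells for the 9 measured genes, in GMP (upper of each pair) and PreGM (lower), with 95% intervals; filled points have an adjusted p under 0.05. Myc, Ccnd2 and Cdk4 are called lower in GMP GFP+, and no gene is called in PreGM.

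These 2 GMP groups also differed in cell type markers. In GMP GFP+ 4 of 5 mast cell and basophil markers were called higher, with array means of 10.40 to 11.03 in GMP GFP+ and 6.22 to 6.73 in GMP GFP-. All 4 eosinophil markers were higher, at 10.35 to 11.22 in GMP GFP+ and 5.87 to 6.23 in GMP GFP-. So were all 4 measured erythroid markers, at 8.37 to 8.66 in GMP GFP+ and 6.23 to 6.69 in GMP GFP-. Of 8 neutrophil markers 5 were lower, at 8.94 to 9.82 in GMP GFP+ and 10.88 to 11.83 in GMP GFP-, and all 5 monocyte markers were lower, at 6.44 to 6.75 in GMP GFP+ and 8.72 to 9.66 in GMP GFP-. The part of these cells in the Myc, Ccnd2 and Cdk4 differences was not tested.

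In PreGM GFP+ against PreGM GFP- 0 of the 9 genes were called in limma, against 2.05% of all genes. At an unadjusted p under 0.05, a looser rule for which no share of all genes is given, there was 1. That gene was Ccnd2, 0.38 lower (95% interval -0.69 to -0.08, adjusted p = 0.287), with the 3 PreGM GFP+ arrays below the 3 PreGM GFP- arrays. After leaving out the 3 arrays with the widest residuals in their groups (PreGM GFP- array 2, PreMegE array 1 and HSC GFP- array 1), a setting chosen after seeing the data, Ccnd2 was called at -0.51 (adjusted p = 0.0259). The difference between the reporter effects of GMP and PreGM called 0 of the 9 genes, against 0.702% of all genes. Myc had the lowest unadjusted p, 0.0151, with an effect 0.66 more negative in GMP (95% interval -1.18 to -0.14, adjusted p = 0.45).

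Along the granulocyte-monocyte path, GMP GFP+ against PreGM GFP+ gave 1 called gene of 9, against 1.02% of all genes in either direction and 0.226% lower. It was Myc, which fell by 0.81 (SE 0.18, adjusted p = 0.0255), 1.75-fold, and all 3 GMP GFP+ arrays lay below all 3 PreGM GFP+ arrays. In the same comparison all 4 eosinophil markers were called higher, with array means of 10.35 to 11.22 in GMP GFP+ and 5.88 to 6.77 in PreGM GFP+. So were 4 of 5 mast cell and basophil markers, at 10.40 to 11.03 in GMP GFP+ and 7.99 to 8.47 in PreGM GFP+, and 3 of 8 neutrophil markers, at 8.94 to 9.82 in GMP GFP+ and 7.38 to 8.69 in PreGM GFP+. Their part in the Myc difference was not tested. The Myc call was lost when any 1 of 5 of these 6 arrays was left out, with an adjusted p of up to 0.223 without GMP GFP+ array 1. Ccnd2 was 0.55 lower (adjusted p = 0.0865) and Mycn 0.57 lower (adjusted p = 0.114) there, and neither was called. In GMP GFP- against PreGM GFP- 0 of 9 were called, against 1.39% of all genes. PreGM GFP- against LMPP called 0, against 0.873%, and PreMegE against PreGM GFP+ called 0, against 0.0652%. An unadjusted p under 0.05 is a looser rule, for which no share of all genes is given. It was met by 3 genes in GMP GFP- against PreGM GFP- (Ccnd1 at -0.70, Cdk6 at -0.36 and Ccnd2 at -0.33). In PreGM GFP- against LMPP 2 met it (Cdk6 at 0.49 and Ccnd3 at 0.32), and in PreMegE against PreGM GFP+ 1 (Mycn at 0.39). In these 3 comparisons 0 genes were also called after centring, after quantile normalization and without any 1 array.

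Genes downstream of the circuit were read as lists, which were chosen with earlier results of these data known. Their counts beside the shares of all genes are therefore no test of an excess. In GMP GFP+ against GMP GFP- 8 of 22 Myc-linked ribosome and nucleotide genes were called lower (4.05% of all genes) and 0 higher, with a median difference of -0.44 against 0.08 over all genes. Nolc1, a nucleolar assembly factor, fell by 1.10 (SE 0.22, adjusted p = 0.00257), Srm, the spermidine synthase, by 1.15 (SE 0.31, adjusted p = 0.0221), and Nop56, a core protein of small nucleolar particles, by 0.67 (SE 0.13, adjusted p = 0.00238). Of 27 measured S phase genes 12 were lower and 0 higher, with a median of -0.78. Cdc45 and Mcm3, parts of the replicative helicase, each fell by 1.12, with adjusted p values of 0.00528 and 0.00662, and Rrm2, which makes deoxynucleotides, fell by 1.17 (adjusted p = 0.02). Of 24 G2 and M phase genes 6 were lower and 0 higher, with a median of -0.67, led by the spindle checkpoint kinase Bub1b (-0.93, adjusted p = 0.0385) and the spindle protein Tacc3 (-0.92, adjusted p = 4.28e-05). These medians stayed below 0 after centring and after quantile normalization, where the counts were 11 and 4 for the Myc-linked list, 16 and 8 for S phase, and 8 and 3 for G2 and M phase. Of the genes named here, Srm, Rrm2 and Bub1b were not called after quantile normalization (adjusted p = 0.0659, 0.056 and 0.0633 in limma).

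Other cell-cycle lists held fewer calls in that sort. Of 18 measured later cyclins, kinases and phosphatases 3 were lower and 0 higher: Skp2, which marks Cdkn1b for breakdown (-0.89, adjusted p = 0.00758), the S phase and mitotic cyclin Ccna2 (-0.88, adjusted p = 0.0239) and the mitotic kinase Cdk1 (-0.86, adjusted p = 0.00767). Of 18 Rb and E2F genes 2 were lower, the activator E2f3 (-1.22, adjusted p = 0.026) and the E2F partner Tfdp1 (-0.42, adjusted p = 0.0187), and after quantile normalization Tfdp1 was not called (adjusted p = 0.282), with 1 gene of the list lower and 2 higher. Of 16 measured p53 targets 1 was higher, against 3.22% of all genes, namely Trp53inp1 (1.33, SE 0.21, adjusted p = 0.000255), which takes part in stress-induced cell death. Of the 4 INK4 inhibitors 0 were called in limma.

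**Figure D4:**
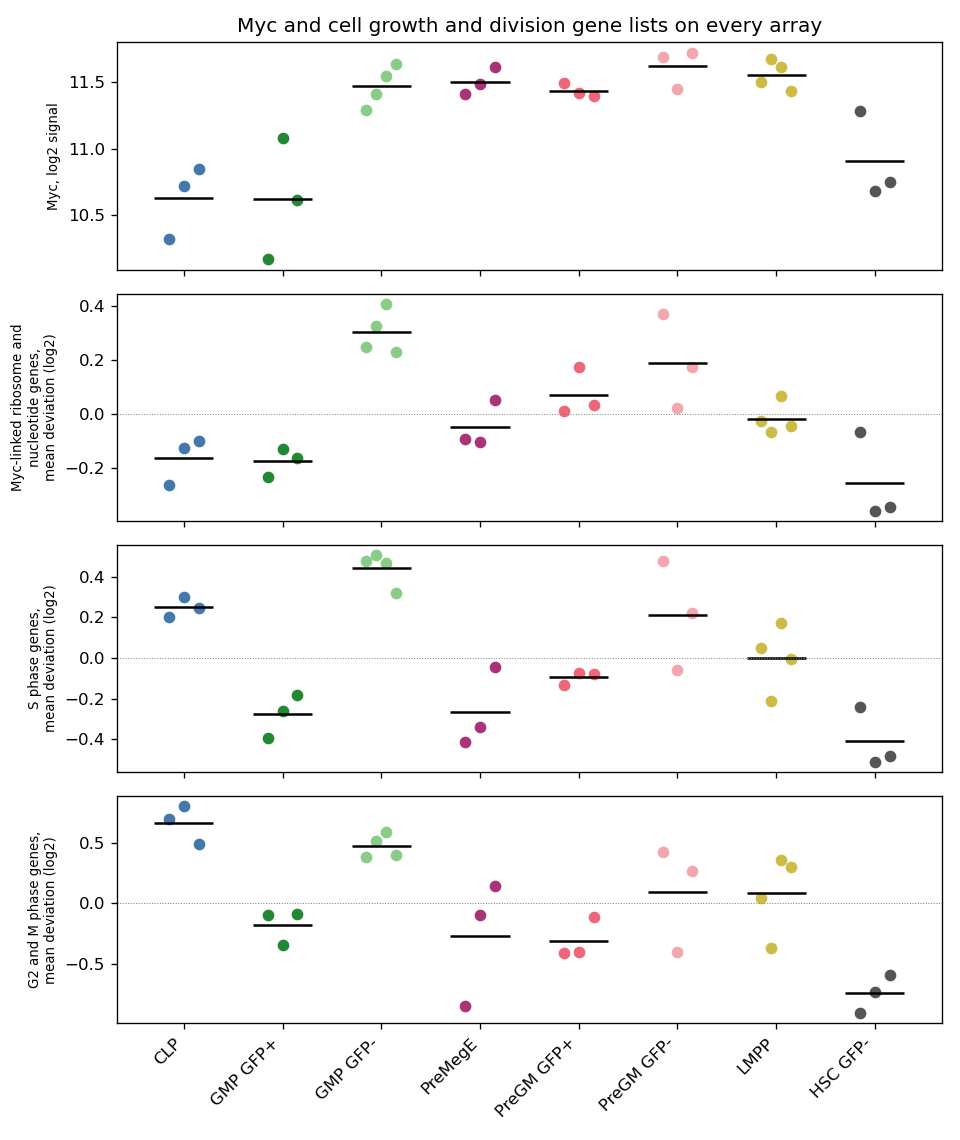
Log2 signal of Myc (top) and, below it, the mean deviation in log2 units of the Myc-linked ribosome and nucleotide genes, the S phase genes and the G2 and M phase genes from their mean over the 26 arrays, on every array (points) with group means (bars). GMP GFP+ lies below GMP GFP- in all 4 panels, while CLP is low for Myc and its linked genes and high for both cell-cycle lists.

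Against stem cells, cell-cycle genes were called most often in GMP GFP- and CLP, and Myc-linked genes in GMP GFP- and PreGM GFP-. In CLP 20 of 24 G2 and M phase genes were called higher and 0 lower (2.99% of all genes were called higher), with a median of 1.45, and in GMP GFP- 18 were higher (7.1% of all genes), with a median of 1.17. The kinesin Kif23 rose by 2.19 in CLP (adjusted p = 0.00068), and the mitotic kinase Plk1 by 2.15 in GMP GFP- (adjusted p = 0.000491). S phase genes were higher in 14 of 27 in GMP GFP- and in 7 of 27 in CLP, with medians of 0.79 and 0.64. Of the 22 Myc-linked genes 11 were higher in GMP GFP- (median 0.46) and 6 in PreGM GFP- (median 0.42, 2.38% of all genes higher), but 0 in CLP (median 0.10). In CLP 0 of the 22 were called after centring and after quantile normalization, and 1 without HSC GFP- array 1. The difference between CLP and GMP GFP- was not tested.

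The other groups held fewer called G2 and M phase genes. G2 and M phase genes were called higher in 2 of 24 in GMP GFP+ (1.89% of all genes higher), 4 in PreMegE (0.988%), 2 in PreGM GFP+ (1.5%), 6 in PreGM GFP- and 6 in LMPP (1.03%), and 0 were lower in these groups. Without HSC GFP- array 1 the LMPP count was 2, the PreMegE count 2 and the PreGM GFP+ count 1, and without the 3 widest arrays the PreGM GFP- count was 13. S phase genes were called in 0 in GMP GFP+ and PreMegE, in 1 in PreGM GFP+ and LMPP and in 4 in PreGM GFP-, with 7 in PreGM GFP- and 2 in LMPP without HSC GFP- array 1. The later cyclins, kinases and phosphatases had 8 of 18 genes higher in CLP, 3 in GMP GFP+, 8 in GMP GFP-, 3 in PreMegE, 4 in PreGM GFP+, 6 in PreGM GFP- and 2 in LMPP, and 0 lower. Leaving out HSC GFP- array 1 gave 2 in PreGM GFP+ and 1 in LMPP. The mitotic cyclin Ccnb2 was among them in all 7 groups, from 1.14 in GMP GFP+ (adjusted p = 0.0119) to 1.91 in CLP (adjusted p = 3.78e-05), and without HSC GFP- array 1 its calls in GMP GFP+ and LMPP were lost.

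Among the Rb and E2F genes, E2f8, a repressor that E2F activity itself induces, was higher than in stem cells by 1.76 in CLP, 2.33 in GMP GFP+, 1.99 in GMP GFP-, 1.93 in PreMegE, 2.13 in PreGM GFP+ and 1.54 in PreGM GFP-. Its adjusted p ranged from 1.83e-06 in GMP GFP+ to 0.00061 in PreGM GFP-. Rbl2, the Rb relative that acts in resting cells, fell by 1.09 in CLP (adjusted p = 8.81e-05) and by 0.71 in GMP GFP- (adjusted p = 0.00256). Of 18 genes in the list, 4 were called higher (2.99% of all genes) and 1 lower (3.11%) in CLP, and 4 higher (7.1%) and 3 lower (5.81%) in GMP GFP-. With HSC GFP- array 1 left out, CLP had 2 higher and 1 lower calls, and GMP GFP- 4 higher and 1 lower. Among the p53 targets, Fas was called lower in 6 of the 7 groups, by -0.82 to -0.56, from a stem cell mean of 5.64 that is itself below the median signal. Its calls in GMP GFP+ and PreGM GFP+ were lost without HSC GFP- array 1 (adjusted p = 0.0698 and 0.0722). Of 16 measured genes 3 were called lower in GMP GFP- (5.81% of all genes) and 2 in CLP (3.11%), and 0 were called higher in any of the 7 groups. In CLP 1 was called lower and 1 higher when HSC GFP- array 1 was left out.

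Across the 8 group means, which come from the same 26 arrays and share their scaling, the genes paired as follows, as a description. Ccnd1 and Ccnd2 correlated at r = 0.84, Mycn and Cdkn1c at 0.78, and Cdk4 and Cdkn1b at -0.81. These pairs had the largest absolute r among all pairs of the measured genes. The F test over the 8 groups called neither Cdk4 (adjusted p = 0.122) nor Cdkn1b (adjusted p = 0.594). The other probe set of Cdkn1b, which correlated with the one used at r = 0.47 over the 26 arrays, was not paired with Cdk4. Myc correlated at 0.75 with the mean of its linked ribosome and nucleotide genes, and at 0.28 with the S phase genes. Cdk4 correlated at 0.92 with the S phase genes, Mycn at -0.72 and Cdkn1c at -0.76 with the G2 and M phase genes, and Ccnd3 at 0.84 with the 4 INK4 inhibitors. The list values named were picked from those of all measured genes with all lists.

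Of 2461 genes whose group means spanned at least 1, those most like Mycn over the 8 group means were Usp54 (r = 0.98), the sodium-potassium-chloride cotransporter gene Slc12a2 (0.97) and the Mediator gene Med12l (0.95), all highest in HSC GFP-. Ccnd1 was most like Kbtbd11 (0.96), the interferon-inducible Ifi203 (0.96) and Ociad2 (0.95). Ccnd2 was most like Heg1 (0.95), the transcription factor gene Etv3 (0.91) and the peptidase gene Prcp (0.90), all lowest in GMP GFP+. Cdk6 was most like Necap2 (0.88), the methionine synthase reductase gene Mtrr (0.87) and Ino80c (0.87), a subunit of a chromatin remodeller, all highest in PreMegE and lowest in HSC GFP-. The group means of Myc (span 0.99) and Ccnd3 (0.96) fell just short of the span of 1 that this search required, as did those of Cdk4, Cdkn1b and Cdkn1c.

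**Figure D5:**
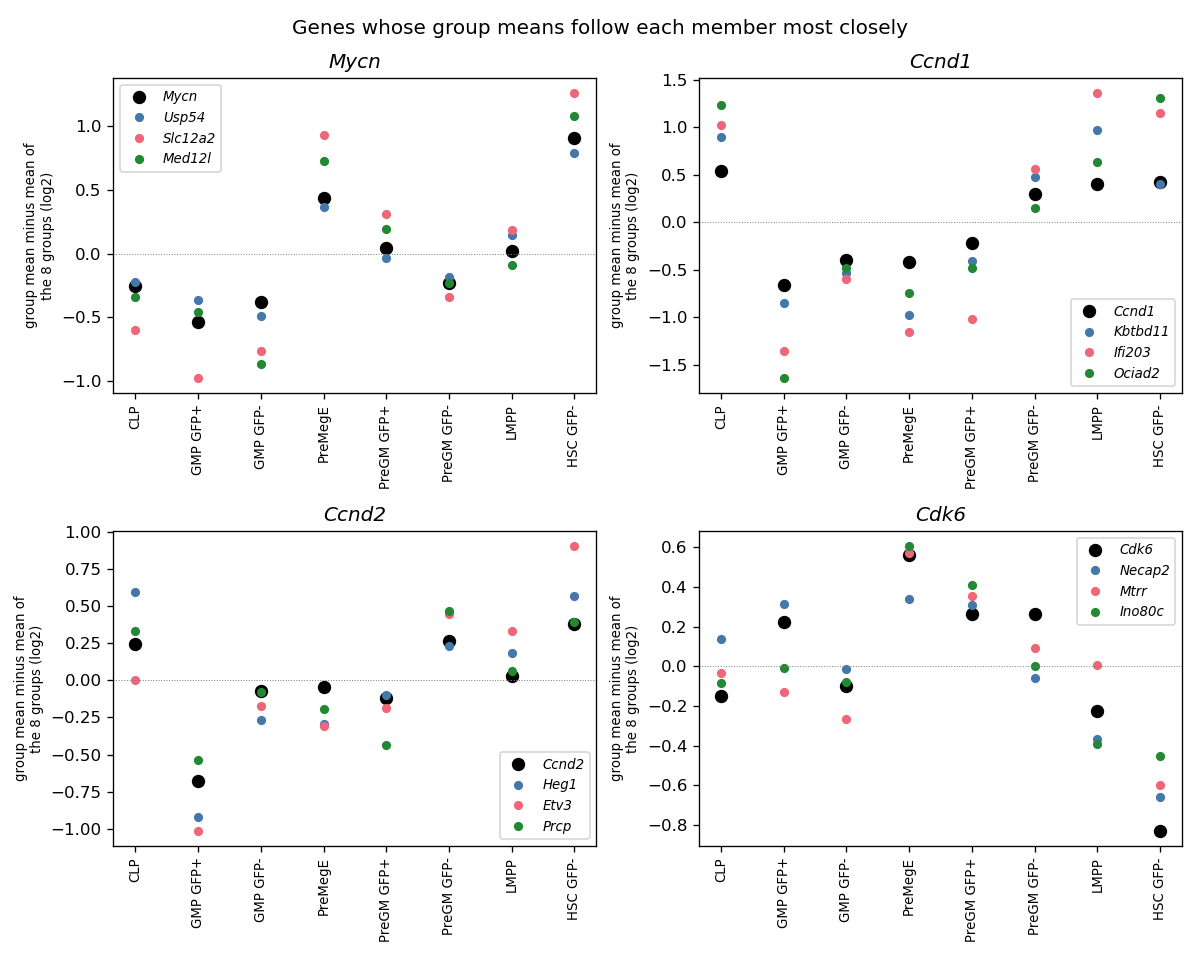
Group means of Mycn, Ccnd1, Ccnd2 and Cdk6 (large black points) and of the 3 genes most like each (small points), as log2 deviations from each gene's mean over the 8 groups. Mycn and its 3 genes peak in HSC GFP-, and Cdk6 and its 3 genes are lowest there.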

How the data were processed

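RNA was extracted with RNeasy Micro, labelled as biotin-cRNA and hybridised to Mouse Gene 1.1 ST arrays, per the labels' protocols. The deposited values are log2 signals that the authors made with RMA and oligo, per the submitters' processing notes, which give no versions. The base of the logarithm was taken from the range of the values. Probe sets were named from the platform annotation. Of 35556 probe sets, 21789 named 1 gene, 1621 several and 12146 none, and only the first kind was used. Where a gene had more than 1 (999 genes), its brightest on average was taken.

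Limma 3.58.1 in R 4.3.3 fitted 1 coefficient for each of the 8 groups to all 26 arrays and 19938 genes, with Benjamini-Hochberg adjustment over all genes and calls at an adjusted p under 0.05. The procedure was tested on simulated data. Alternatives were centring, quantile normalization, array weights, a trended robust prior, a filter on dim genes, the mean of probe sets, only the groups compared, a replicate block and leaving out each array. Promoter windows and motif shares came from RefSeq tables (GRCm38.p6).

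The genes, lists and comparisons were chosen with earlier results of these data known. All members were described, and of each list up to 6 called genes with the largest difference in each comparison could be named. Likeness was Pearson's r over group means for members spanning at least 1. The main fit did not pair samples by the replicate numbers in the titles. The correlation of deviations passed 0.1 for every pair in 0 of 14 comparisons (range -0.263 to 0.325). That rule cannot show that samples were unpaired. In PreGM GFP- against LMPP the 3 pairs correlated at 0.0996 to 0.325, and 3 samples correlated best with their own number. The number of arrays limits the precision.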

Additional observations from a re-analysis of the deposited data

Results flagged for a closer look

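Among the 18 gene and group combinations with 4 arrays (GMP GFP- and LMPP), 1 held an array that stood far from the rest. Ccnd1 in GMP GFP- had a log2 signal of 7.42 on array 1, while the other 3 arrays lay at 7.14, 7.11 and 7.13. A share of about 0.05 of such combinations is flagged by chance. Ccnd1 in GMP GFP- against HSC GFP- remained called without that array. The call was lost without GMP GFP- array 2, 3 or 4 (adjusted p = 0.0621, 0.0638 and 0.0566 in limma). It was also lost without HSC GFP- array 1 (adjusted p = 0.179) and after centring (adjusted p = 0.0749). Groups of 3 arrays were not examined in this way.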

How the results depend on the processing

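The count of genes called of the 9 measured moved most when only the groups compared were fitted, which leaves fewer arrays to estimate the spread: it was 2 in CLP, 3 in GMP GFP+, 1 in PreMegE, 1 in PreGM GFP+, 2 in PreGM GFP- and 0 in LMPP against HSC GFP-, and 0 in GMP GFP+ against PreGM GFP+. With array quality weights it was 4 in PreGM GFP+ and 2 in PreGM GFP- against HSC GFP-, and 2 in GMP GFP+ against PreGM GFP+; the cause was not tested. Quantile normalization left 1 in GMP GFP+ against GMP GFP-. Without the 3 widest arrays, a setting added after seeing the data, it was 3 in GMP GFP+ against HSC GFP-, 1 in PreGM GFP+ against PreGM GFP- and 2 in GMP GFP+ against PreGM GFP+.

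Without any 1 array the counts against HSC GFP- ranged over 3 to 4 in CLP, 3 to 5 in GMP GFP+, 3 to 7 in GMP GFP-, 1 to 3 in PreMegE, 2 to 4 in PreGM GFP+, 2 to 4 in PreGM GFP- and 2 to 4 in LMPP. They ranged over 0 to 2 in GMP GFP+ against PreGM GFP+ and 1 to 3 in GMP GFP+ against GMP GFP-. With the replicate block the counts were 4 in CLP, 5 in GMP GFP+, 5 in GMP GFP-, 2 in PreMegE, 2 in PreGM GFP+, 4 in PreGM GFP- and 3 in LMPP against HSC GFP-. There Myc was lost in LMPP (0.64, adjusted p = 0.0883) and GMP GFP- (0.56, adjusted p = 0.0554), and Cdk6 was gained in LMPP (0.63, adjusted p = 0.0384).

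Of 5175 recomputed values of single genes, called or not in the main fit, 0 turned sign past the threshold, 97 lost a call and 41 gained one. Only values called in the main fit could lose a call, so 97 of 5175 is not the share of calls lost. Of the 154 values of named list genes, 144 stayed called after centring, 139 after quantile normalization and 126 without HSC GFP- array 1, and 0 turned sign.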
